A study of Homo sapiens with 20 samples.

Results

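CTCF binding was compared between LNCaP and IMR90 cells that had both received control siRNA. The members were the autosomal peaks of 4 CTCF ChIP-seq libraries of 20 in the series, 2 of LNCaP and 2 of IMR90, all made with the standard protocol. Overlapping peaks (at least 1 bp) were merged into 58879 sites. A site was called shared when all 4 libraries held a peak, LNCaP-specific when both LNCaP libraries and neither IMR90 library held one, and IMR90-specific in the converse case. This gave 23449 shared, 6203 LNCaP-specific and 3501 IMR90-specific sites, and left 25726 sites in other combinations.

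The study depleted CTCF by RNA interference and asked which sites remained bound. LNCaP is an established line from a lymph node metastasis of prostate cancer and IMR90 an established line of fetal lung fibroblasts, so each arm is 1 line. Both arms of the present comparison received 20 nM of a pooled non-targeting siRNA and were collected at 144 h. LNCaP cells were split after 72 h and transfected again for a further 72 h. IMR90 cells received the siRNA with Lipofectamine RNAiMAX, and effects of the line and of the transfection cannot be told apart. The libraries of a line are numbered replicates, and p-values measure only the spread between 2 libraries of a line.

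CTCF is a zinc finger protein that binds a long, asymmetric DNA motif and, together with the cohesin ring, anchors chromatin loops and insulates neighbouring domains. Cohesin stops at bound CTCF mostly when the motif points towards it, so the orientation of a motif matters as well as its presence. Many CTCF sites are occupied in every tissue, whereas others are occupied in some cell types only. Methylation of a CpG inside the motif is known to weaken binding at part of the sites.

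The LNCaP label was checked with the H3K4me3 regions of the control LNCaP cells, a mark of active promoters. All 21 prostate luminal genes of a list that holds KLK3 and TMPRSS2 had a region at a transcript start in both libraries, as did 19 of 20 epithelial adhesion genes. The figures were 9 of 23 for fibroblast matrix genes and 12 of 21 for mesenchymal regulators, beside 68.1% of all 19220 protein-coding autosomal genes. No mark was measured in IMR90, so its label was not checked in this way. Autosomal peaks numbered 36888 and 44853 in the LNCaP libraries and 34548 and 35661 in the IMR90 libraries. The means of 40870.5 ± 5632 and 35104.5 ± 787 (SD, n = 2 each) gave p = 0.33 by an exact permutation test (two-sided), and 2 libraries against 2 cannot give a lower value. The number of reads under each summit could be worked back from the fold enrichment and p-value of every peak. The background of reads per position, which scales with the number of reads kept, was 1.26 and 1.22 in LNCaP and 0.9 and 0.68 in IMR90.

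Examples of the sequence under the peaks are given for some of the strongest sites of each class. Each run below is hg19 reference sequence, 40 bases read 5′ to 3′ on the strand given, and the capitals mark the 12 bases within 100 bp of the summit that best match the core of the CTCF motif, written as CCA, 2 free bases, AG, 2 free bases and GGC. The first pair are among the strongest shared sites, the next 3 among the strongest LNCaP-specific sites and the last pair among the strongest IMR90-specific sites.
ASPG, shared, chr14:104544523-104544534, plus strand: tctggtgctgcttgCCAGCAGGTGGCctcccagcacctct
ZNF385A, shared, chr12:54773624-54773635, minus strand: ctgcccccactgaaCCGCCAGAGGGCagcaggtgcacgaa
IGHV3-52, LNCaP-specific, chr14:107042289-107042300, minus strand: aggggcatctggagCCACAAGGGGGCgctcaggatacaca
GABRG3, LNCaP-specific, chr15:27604160-27604171, minus strand: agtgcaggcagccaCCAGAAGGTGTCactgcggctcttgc
NCAM2, LNCaP-specific, chr21:21816069-21816080, minus strand: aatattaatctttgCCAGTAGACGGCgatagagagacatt
WDR25, IMR90-specific, chr14:100883951-100883962, minus strand: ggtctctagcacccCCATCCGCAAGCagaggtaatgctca
CCDC12, IMR90-specific, chr3:46977161-46977172, plus strand: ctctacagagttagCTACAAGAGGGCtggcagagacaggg
The sites named for ASPG, IGHV3-52 and NCAM2 carried all 8 fixed letters. The runs at ZNF385A, GABRG3 and CCDC12 had 1 mismatch, and the run at WDR25 had 2, although its peak was the strongest of the IMR90-specific class.

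Most reproducible binding was common to both lines. Shared sites made up 72.5% of the 32361 sites held by both LNCaP libraries (95% Wilson interval 72.0 to 72.9%) and 79.5% of the 29490 sites held by both IMR90 libraries (79.1 to 80%). LNCaP-specific sites were 10.5% of all merged sites and 19.2% of the LNCaP sites. IMR90-specific sites were 5.95% of all merged sites and 11.9% of the IMR90 sites. The intervals cover counting error only. The largest of the remaining combinations was a peak in LNCaP replicate 2 alone, with 8714 sites. Part of the excess of LNCaP-specific sites moved with the length of the peak lists: with the 4 lists trimmed to equal length by p-value, 4730 sites were LNCaP-specific and 4361 IMR90-specific. When LNCaP replicate 1 or 2 was left out, the LNCaP-specific count was 14955 or 9744, and without LNCaP replicate 2 the IMR90-specific count was 5589. Without IMR90 replicate 1 or 2 the IMR90-specific count was 6923 or 6399.

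**Figure D1:**
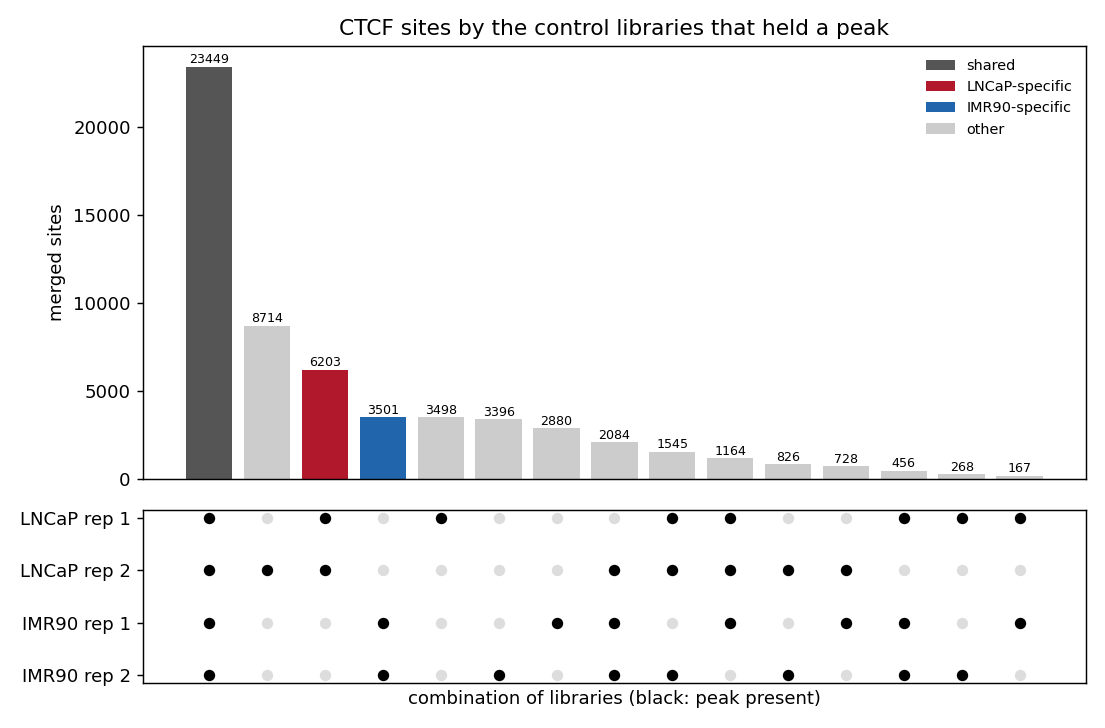
Bars give the number of merged autosomal CTCF sites for each combination of the 4 control libraries, and black dots below mark the libraries with a peak. The 23449 sites in all 4 libraries form the tallest bar, and the 8714 sites of LNCaP replicate 2 alone the next.

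Sites that both lines held were also the strong ones. At shared sites the median fold enrichment over the local background was 13.4 and 16.3 in the LNCaP libraries and 15.0 and 15.8 in the IMR90 libraries. It was 7.21 and 8.28 at LNCaP-specific sites and 7.37 and 7.38 at IMR90-specific sites. A mean fold enrichment of at least 20 was reached by 29.9% of shared sites, by 3.43% of LNCaP-specific sites (213 sites) and by 1.31% of IMR90-specific sites (46 sites). Presence was called from the same peaks, so these values are a description.

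Sharing rose with strength in both lines. Among the sites of both LNCaP libraries with a mean fold enrichment below 6, 32.4% were shared and 51.9% LNCaP-specific, whereas at 20 or more 95.1% were shared and 2.88% specific. For the IMR90 sites the corresponding shares were 39.9% and 38.9% below 6, and 98.8% and 0.615% at 20 or more. Sites just outside a class had similar strength to those inside it. The 2709 sites with both LNCaP libraries and 1 IMR90 library had a median of 8.60 in LNCaP and 6.32 in IMR90, and the 2540 sites with both IMR90 libraries and 1 LNCaP library had 6.11 in LNCaP and 8.13 in IMR90. The highest q-value of a member was 0.0455 in the LNCaP-specific class and 0.042 in the IMR90-specific class, and 128 and 120 members had a q-value above 0.001.

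The order of peak strength at shared sites was kept within a line more closely than between lines. Spearman's rho of the fold enrichment over the 23449 shared sites was 0.834 between the LNCaP libraries and 0.858 between the IMR90 libraries. The 4 pairs that joined an LNCaP with an IMR90 library gave 0.539, 0.555, 0.594 and 0.592. With summit reads in place of fold enrichment the values were 0.841 and 0.864 within lines and 0.597 to 0.673 between lines. These are correlations across sites of the same libraries, and sites are not replicates.

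**Figure D2:**
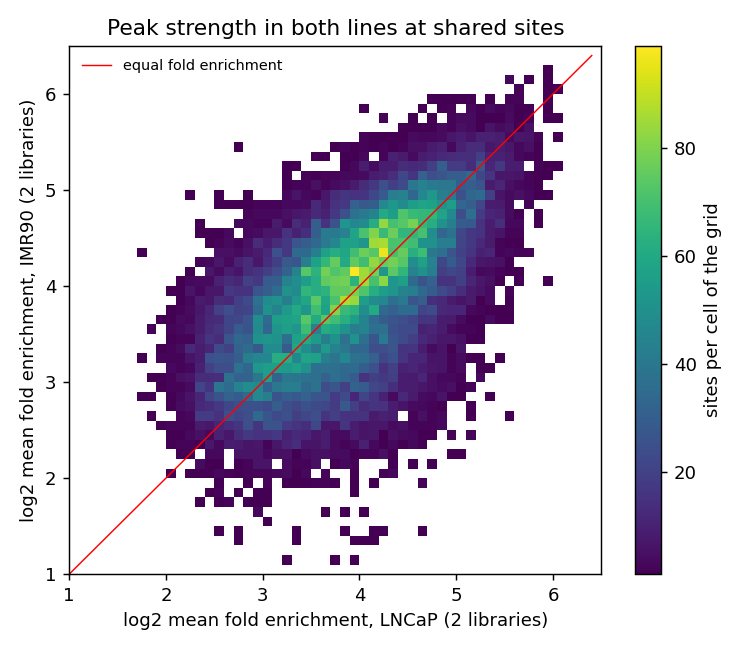
The grid counts the 23449 shared sites by their log2 mean fold enrichment in LNCaP (horizontal axis) and in IMR90 (vertical axis), each over 2 libraries, and the red line marks equal values. Sites spread to both sides of the line, with between-line rank correlations of 0.539 to 0.594.

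A part of the shared sites differed in strength between the lines. Limma on quantile-normalised log2 fold enrichment, with Benjamini-Hochberg adjustment over all shared sites, called 2388 sites higher in LNCaP (10.2% of those tested) and 2210 higher in IMR90 (9.42%). The difference was at least 2-fold at 1559 and 1226 of them. The median difference (LNCaP minus IMR90, log2) was 1.1 among the former and -1.04 among the latter, with a median standard error of 0.27, beside -0.03 over all shared sites. The values of the lines did not overlap at 25.1% of shared sites in the LNCaP direction and at 31.6% in the IMR90 direction, so lack of overlap alone was common. The calls needed all 4 libraries: without any 1 of them limma called 0 sites in either direction, with 2831 to 3268 sites higher in LNCaP and 2882 to 3228 higher in IMR90 at an unadjusted p under 0.05. With summit reads instead of fold enrichment, an alternative added after the data were seen, 1461 and 1451 sites were called, of which 1075 and 896 were among the calls made from fold enrichment.

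Among the 5 largest differences towards LNCaP, 3 lay outside simple repeats. Within LINC02684, a long non-coding RNA gene on chromosome 11, the fold enrichment was 42.5 and 53.1 in the LNCaP libraries and 7.37 and 4.77 in the IMR90 libraries (difference 3.00 ± 0.28 SE on the log2 scale, limma adjusted p = 0.00074). In an intron of TMEM132B, which encodes a transmembrane protein, it was 31.5 and 35.1 against 6.09 and 3.65 (2.82 ± 0.32, limma adjusted p = 0.0014). At 62466 bp from OPRM1, the gene of the mu opioid receptor, it was 34.4 and 36.6 against 4.35 and 6.35 (2.73 ± 0.29, limma adjusted p = 0.0014). The LNCaP values at all 3 were clear of the IMR90 values. The sites in LINC02684 and TMEM132B held the motif with no mismatch, whereas the best match near OPRM1 had 2. After CTCF siRNA the site near OPRM1 kept peaks of 25.8 and 30.6 in LNCaP, and the site in TMEM132B kept none. In IMR90 after CTCF siRNA the site near OPRM1 had a peak of 10.0 in replicate 1, above both control values, and none in replicate 2.

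The other 2 sites lay in GA-rich repeats, and there the summit reads did not follow the fold enrichment. At 44024 bp from DNAJB6 the fold enrichment was 22.3 and 27.1 in LNCaP and 1.51 and 1.90 in IMR90 (difference 3.54 ± 0.30, limma adjusted p = 0.00067). The summit reads there were 133 and 158 in LNCaP and 227 and 231 in IMR90, the opposite order. At 202 bp from GOLM2 the fold enrichment was 13.1 and 37.2 against 2.06 and 3.39, with 37 and 105 summit reads in LNCaP and 45 and 57 in IMR90. The sequence at these sites, with the capitals as before, is shown for its contrast with the sites above.
DNAJB6, chr7:157254153-157254164, minus strand: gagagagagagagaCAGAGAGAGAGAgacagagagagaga
GOLM2, chr15:44580690-44580701, plus strand: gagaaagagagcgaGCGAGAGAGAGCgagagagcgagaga
The best matches had 4 and 3 mismatches. Both sites also had peaks in the LNCaP libraries after CTCF siRNA, with a fold enrichment of 49.4 and 41.8 near DNAJB6 and 16.6 and 49.3 near GOLM2. In IMR90 after CTCF siRNA the values were 1.45 and 1.78 near DNAJB6 and 4.55 and 4.71 near GOLM2. The low-cell IMR90 controls had peaks of 10.7 and 15.0 near GOLM2, above the standard IMR90 controls, and none near DNAJB6.

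The largest differences towards IMR90 were led by a muscle actin gene. In an intron of ACTA2, which encodes the smooth muscle actin of contractile fibroblasts, the fold enrichment was 3.66 and 5.76 in LNCaP and 34.0 and 28.9 in IMR90 (difference -2.84 ± 0.32, limma adjusted p = 0.0014). The summit reads were 10 and 16 in LNCaP and 66 and 49 in IMR90. In KCNJ2-AS1, the antisense gene of an inward rectifier potassium channel, it was 3.77 and 3.17 against 20.0 and 20.8 (-2.71 ± 0.32, limma adjusted p = 0.0014). The other 3 sites were in a non-coding gene of chromosome 19 without a symbol (-2.69), in an intron of ATP8B2 (-2.47), which encodes a lipid flippase, and at 4447 bp from REEP3 (-2.41), whose product shapes the endoplasmic reticulum. At all 5 sites the lowest IMR90 value exceeded the highest LNCaP value in fold enrichment and in summit reads.
ATP8B2, chr1:154298918-154298929, plus strand: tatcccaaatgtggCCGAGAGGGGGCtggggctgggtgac
The run had 1 mismatch and is shown as an example of a motif-bearing site that was stronger in IMR90.

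The classes were then read in libraries that had not been used to build them. The series holds 2 IMR90 control libraries from a low-cell protocol, in which 69.7% and 67.2% of shared sites, 9.85% and 9.63% of IMR90-specific sites and 4.47% and 4.00% of LNCaP-specific sites had a peak. Most IMR90-specific sites were therefore not called in the low-cell libraries of the same line. The study's reporting summary lists fewer reads for the low-cell controls than for the standard IMR90 controls, and the effect of depth was not tested. At a mean fold enrichment of at least 20, a low-cell peak was present at 54.3% and 60.9% of the 46 IMR90-specific sites, at 9.39% and 7.51% of the 213 LNCaP-specific sites and at 93.5% and 92.9% of shared sites.

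After CTCF siRNA, the share of sites with a peak was lower in both specific classes than among shared sites. In IMR90 a peak remained at 71.0% and 68.6% of shared sites and at 14.7% and 12% of IMR90-specific sites. LNCaP-specific sites, which by definition had no IMR90 control peak, had one after CTCF siRNA at 1.06% and 0.919%. In LNCaP a peak remained at 13.1% and 27.4% of shared sites and at 1.76% and 2.95% of LNCaP-specific sites. IMR90-specific sites, by definition without an LNCaP control peak, had one after CTCF siRNA at 0.114% and 0.8%. For LNCaP CTCF siRNA the reporting summary lists fewer reads in replicate 1 than in replicate 2, and the effect of depth was not tested. The study reports a smaller reduction of CTCF mRNA in IMR90 than in LNCaP, and its effect on the shares was not tested. Strength moved with these shares. Among sites with a mean fold enrichment of at least 20, the LNCaP libraries kept a peak at 30.5% and 60.0% of shared and at 11.7% and 26.3% of LNCaP-specific sites, and the IMR90 libraries at 98.5% and 96.9% of shared and at 97.8% and 89.1% of IMR90-specific sites. The part of strength in the difference between classes was not tested beyond these strata.

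**Figure D3:**
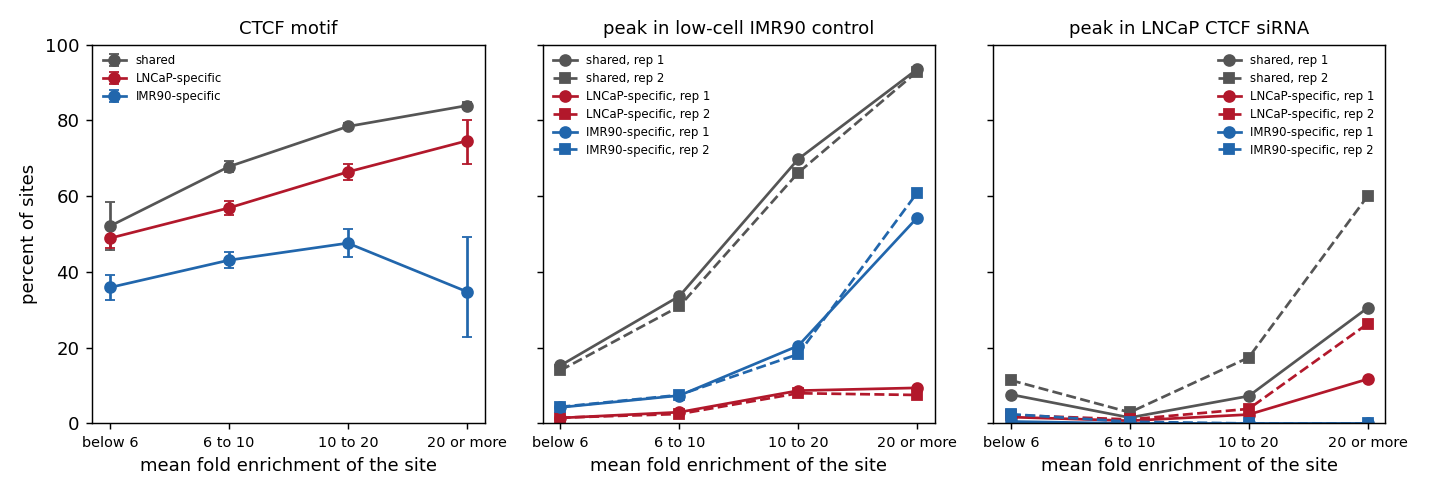
Each panel gives the percent of sites of a class in 4 strata of mean fold enrichment: with a CTCF motif (bars are 95% Wilson intervals), with a peak in each low-cell IMR90 control library, and with a peak in each LNCaP library after CTCF siRNA. Shared sites are highest in all 3 panels at 20 or more, where 83.9% held a motif against 74.6% of LNCaP-specific and 34.8% of IMR90-specific sites.

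The CTCF motif was present at most shared sites and at fewer of the specific ones. The core motif given above, with at most 1 mismatch in its 8 fixed letters, on either strand and within 100 bp of the summit, was found at 77.9% of shared sites (77.3 to 78.4%), at 58.5% of LNCaP-specific sites (57.3 to 59.7%) and at 42.3% of IMR90-specific sites (40.6 to 43.9%). Windows of the same length placed 1000 bp away held it at 13.3%, 13.5% and 13.3%. Without a mismatch the shares were 31.1%, 15.6% and 7.63%, against 0.738%, 0.677% and 1.06% in the windows placed away. The motif centre lay a median of 12.5 bp from the summit at shared sites, 16.5 bp at LNCaP-specific sites and 20.5 bp at IMR90-specific sites. Below a fold enrichment of 6 the motif was found at 52.1% of shared (45.8 to 58.4%) and 48.9% of LNCaP-specific sites (46.2 to 51.6%), whose intervals overlapped, and at 35.9% of IMR90-specific sites (32.6 to 39.3%). Between a fold enrichment of 10 and 20 the motif was found at 78.4% of shared, 66.4% of LNCaP-specific (64.2 to 68.6%) and 47.6% of IMR90-specific sites (43.9 to 51.3%).

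Among sites with a motif, a CpG formed by the last letter of the motif and the base after it was present at 24.2% of shared (23.6 to 24.8%), 17.0% of LNCaP-specific (15.8 to 18.3%) and 12.2% of IMR90-specific sites (10.7 to 14%). The composition around the summit differed little, with a median GC content of 47.8%, 48.8% and 47.3%. Windows with a GC content above 50% and an observed to expected CpG ratio above 0.6 made up 6.86%, 6.19% and 5.54%. DNA methylation was not measured in these files.

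Active histone marks of LNCaP were most frequent at LNCaP-specific sites. An H3K27ac region, a mark of active promoters and enhancers, called in both control libraries overlapped 19.9% of LNCaP-specific sites (18.9 to 20.9%), 14.9% of shared sites (14.4 to 15.3%) and 12.7% of IMR90-specific sites (11.7 to 13.9%). For H3K4me3 the shares were 14.1% (13.2 to 15.0%), 12.4% (12 to 12.9%) and 9.48% (8.56 to 10.5%). The order of the classes did not hold in every stratum of strength. H3K27ac overlapped 26.6% of LNCaP-specific sites below a fold enrichment of 6 and 15.5% at 20 or more, where shared sites stood at 15.3% and IMR90-specific sites at 17.4%.

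The position of the sites relative to genes also differed between the classes. Summits within 1000 bp of a protein-coding transcript start were 14.1% of IMR90-specific sites (13 to 15.3%), 11.5% of shared sites (11.1 to 11.9%) and 9.61% of LNCaP-specific sites (8.9 to 10.4%). Introns held 43.4%, 39.1% and 34.0% in the same order, and intergenic sequence 25.7%, 33.1% and 37.8%. Coding exons held 1.12 to 1.55% of a class and UTRs 1.47 to 2.68%.

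The 5 strongest LNCaP-specific sites had a mean fold enrichment between 37.7 and 39.5. The first lay beside IGHV3-52 in the immunoglobulin heavy chain locus, with 30.8 and 48.3 and summit reads of 76 and 118. The others were in an intron of COL22A1 on chromosome 8, a collagen gene (35.0 and 42.3), in an intron of GABRG3, which encodes a subunit of the GABA-A receptor (33.3 and 43.2), 554658 bp from NCAM2, a neural adhesion molecule (34.2 and 41.8), and in an intron of ADARB2, an RNA editing family member (32.4 and 43.0). Replicate 2 was above replicate 1 at all 5. Peaks remained after CTCF siRNA at the sites of IGHV3-52 (6.30 and 22.1) and COL22A1 (7.38 and 8.55), and in replicate 2 alone at GABRG3 (6.06) and NCAM2 (5.45). The GABRG3 site also had a weak peak of 4.75 in low-cell IMR90 replicate 1.

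The 5 strongest IMR90-specific sites ranged from 31.8 to 48.8. They were in an intron of WDR25 (46.9 and 50.6), in the UTR of C1S, which encodes a complement protease (46.8 and 47.1), 10716 bp from FGF20 on chromosome 8, a fibroblast growth factor gene (42.1 and 41.0), in an intron of MYO9B, an unconventional myosin (37.6 and 29.4), and in an intron of CCDC12 (35.0 and 28.6). A peak remained in both IMR90 libraries after CTCF siRNA at all 5, from 9.72 at C1S to 39.3 at WDR25. The low-cell controls held peaks at WDR25 (6.25 and 6.87) and CCDC12 (9.02 and 6.87) in both libraries and at C1S in replicate 1 (9.56). No LNCaP library, control or depleted, had a peak at any of the 5.

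The 5 strongest shared sites are given for comparison. The site 8561 bp from NT5M, a mitochondrial nucleotidase gene, had 56.7 and 67.0 in LNCaP and 68.1 and 81.4 in IMR90. Those near TNKS, near ASPG, in SORBS3 and in ZNF385A had means of 66.3, 66.2, 65.8 and 61.3 over the 4 libraries. None of the 5 passed the limma threshold for a difference, the lowest adjusted p being 0.21 at ZNF385A.

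Specific sites were unevenly spread over the chromosomes. The LNCaP-specific share of LNCaP sites was highest on chromosome 21 at 28.5% (24.3 to 33.1%), chromosome 8 at 24.0% (22 to 26.1%) and chromosome 14 at 23.2% (20.9 to 25.7%). On chromosome 14 a single locus, the span of the IGHV genes, held 53 of the 274 LNCaP-specific sites and 66 of the 1179 LNCaP sites. The share was lowest on chromosomes 22 at 12.4% (9.94 to 15.3%), 13 at 13.4% (10.9 to 16.4%) and 17 at 15.9% (14.2 to 17.9%). The IMR90-specific share of IMR90 sites was highest on chromosomes 13 at 20.3%, 18 at 18.4% and 16 at 14.6%, and lowest on chromosomes 19 at 8.67%, 12 at 10.2% and 17 at 10.3%. The summit reads at shared sites moved with this on chromosomes 13 and 18. The median log2 ratio of LNCaP to IMR90 summit reads was 0.43 over all autosomes, -0.13 on chromosome 13 and -0.23 on chromosome 18, and between 0.22 and 0.69 on each of the others. On the same chromosomes 96 of 466 and 86 of 447 shared sites were called higher in IMR90 by limma (20.6% and 19.2%, beside 9.42% of all), and 18 and 14 higher in LNCaP. The part of this ratio in the specific shares was not tested.

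**Figure D4:**
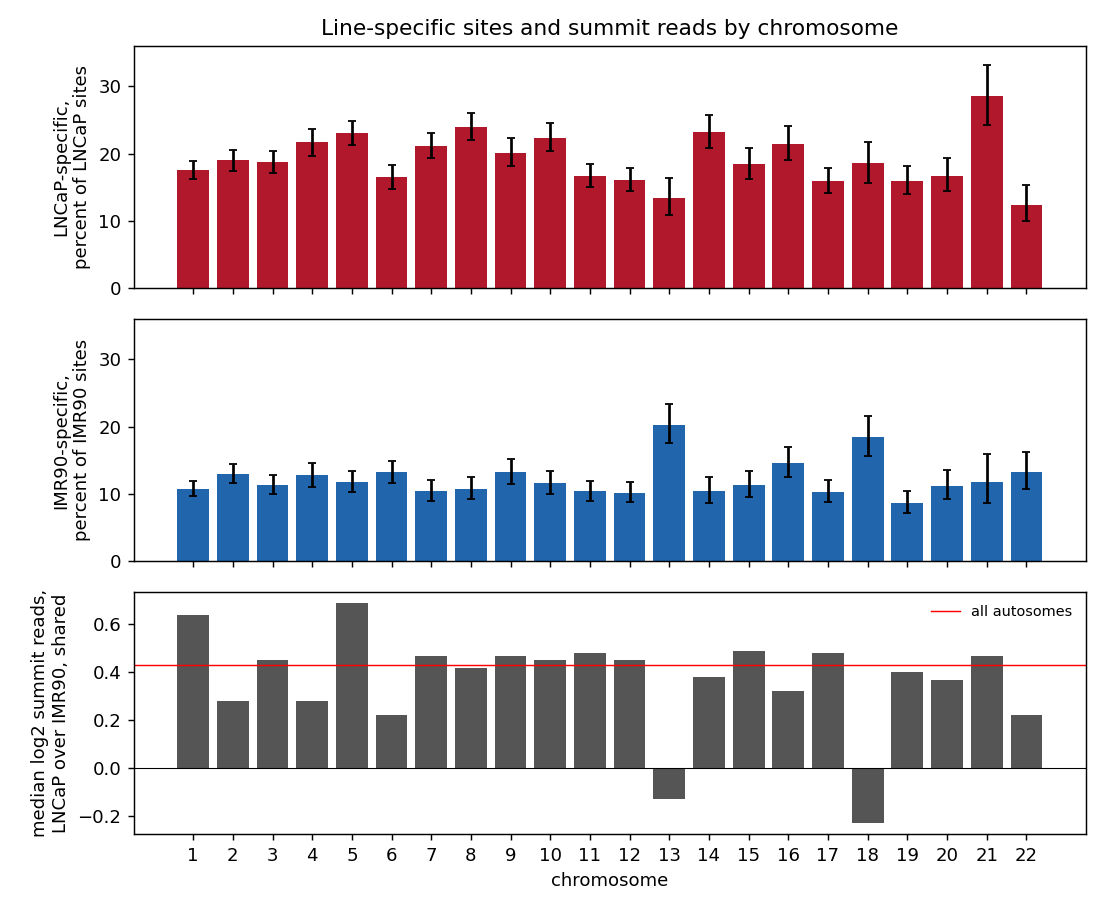
The upper panels give, for each autosome, the percent of the sites of a line that were specific to it, with 95% Wilson intervals, and the lower panel the median log2 ratio of LNCaP to IMR90 summit reads at shared sites with the value over all autosomes as a red line. Chromosomes 13 and 18 have the highest IMR90-specific shares, 20.3% and 18.4%, and ratios of -0.13 and -0.23.

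The bins with most LNCaP-specific sites lay over the V segment array of the immunoglobulin heavy chain locus, whose segments are joined to D and J segments in B cells. The adjacent 1-Mb bins that start at 106000001 and 107000001 on chromosome 14 held 36 and 19 LNCaP-specific sites, the highest counts of any bin. The span of the IGHV genes (hg19, chr14:106404611-107289019) held 78 merged sites. Both LNCaP libraries had a peak at 66 of them and both IMR90 libraries at 6, so that 53 were LNCaP-specific, 6 shared and none IMR90-specific. LNCaP replicates 1 and 2 had peaks at 69 and 75 of the sites and IMR90 replicates 1 and 2 at 8 and 11. The median fold enrichment was 13.3 and 13.4 in LNCaP and 6.21 and 7.51 in IMR90 where a peak was present. Of the 6 shared sites 5 were called higher in LNCaP, beside 10.2% of all shared sites.

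Within 1 kb of an IGHV gene there were 51 LNCaP-specific sites, 44 of them on chromosome 14 and the other 7 beside the orphan segments on chromosomes 15, 16 and 21. The motif with at most 1 mismatch was present at 31 of the 51, beside 58.5% of all LNCaP-specific sites. At 29 of the 31 it lay on the strand of the segment. The following runs, with the capitals as before, are from segments of chromosome 14 and from orphans.
IGHV3-48, chr14:106993740-106993751, minus strand: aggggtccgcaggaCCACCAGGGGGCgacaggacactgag
IGHV3-71, chr14:107183324-107183335, minus strand: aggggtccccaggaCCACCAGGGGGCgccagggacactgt
IGHV4-4, chr14:106478012-106478023, minus strand: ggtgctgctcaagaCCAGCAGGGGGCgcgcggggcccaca
IGHV7-27, chr14:106775185-106775196, minus strand: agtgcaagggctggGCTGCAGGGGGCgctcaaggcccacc
IGHV3OR15-7, chr15:20192837-20192848, minus strand: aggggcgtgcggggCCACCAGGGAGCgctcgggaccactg
IGHV1OR15-2, chr15:20179163-20179174, minus strand: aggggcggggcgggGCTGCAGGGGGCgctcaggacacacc
The best matches at IGHV7-27 and IGHV1OR15-2 had 2 mismatches. The string GGGGGCGCTC, taken from the IGHV3-52 site after these sequences were seen and searched on both strands within 100 bp of the summit, was present at 30 of the 51 sites. It was present at 0.559% of shared, 0.887% of LNCaP-specific and 0.229% of IMR90-specific sites as a whole. The 55 LNCaP-specific sites with the string include these 30, and the 131 shared ones include 4 beside IGHV genes. An active mark of LNCaP (H3K27ac or H3K4me3) overlapped 6 of the 51 sites, a low-cell IMR90 peak 0, and a peak after CTCF siRNA in LNCaP 7 and 10. Over all 6203 LNCaP-specific sites the corresponding counts were 1452 for a mark, 323 for a low-cell peak, and 109 and 183 after CTCF siRNA. Reads that aligned to more than 1 place were discarded upstream, and IGHV segments are near copies of each other, so the strength of a single segment is uncertain. Within 1 kb of a light chain IGLV gene there were 16 shared sites and 0 LNCaP-specific ones.

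The clustered protocadherin genes on chromosome 5, which encode neuronal adhesion proteins chosen promoter by promoter with the help of CTCF, split by subcluster. Over the alpha genes (chr5:140165721-140391932) 8 sites were LNCaP-specific, 1 was shared and 0 were IMR90-specific. Over the beta genes (chr5:140430959-140628933) the counts were 6, 2 and 0. Over the gamma genes (chr5:140710081-140892544) they were 1, 14 and 1. LNCaP replicates 1 and 2 had peaks at 13 and 17 of the 19 alpha sites and IMR90 replicates 1 and 2 at 1 and 3. At the gamma genes the corresponding counts were 21 and 22 against 18 and 19 of 24.

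The lone shared alpha site, in PCDHA5, had a fold enrichment of 17.8 and 22.7 in LNCaP and 7.90 and 7.74 in IMR90 (difference 1.39, limma adjusted p = 0.0074). At PCDHA4 the values were 12.3 and 17.6 in LNCaP with a single IMR90 peak of 5.36. At the gamma end, in PCDHGC5, they were 23 and 33.2 in LNCaP and 21.1 and 16.7 in IMR90 (0.59, limma adjusted p = 0.079). The median difference over the 14 shared gamma sites was 0.08. Of these 14 sites 1 was called higher in LNCaP, beside 10.2% of all shared sites.

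**Figure D5:**
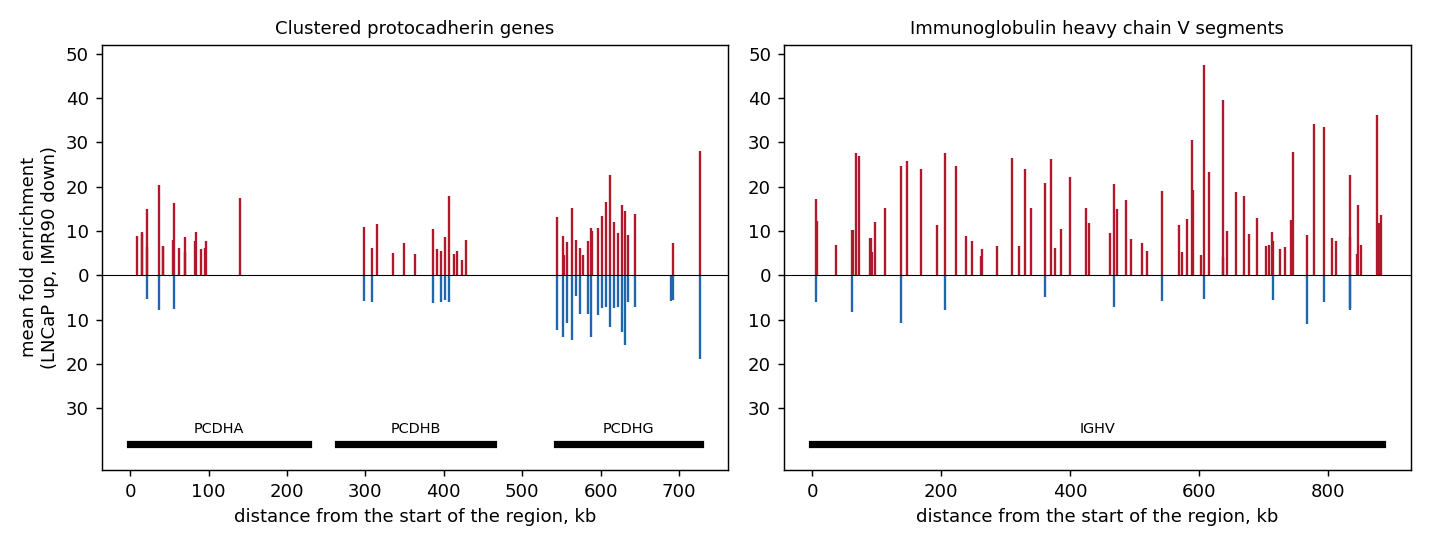
Vertical lines give the mean fold enrichment of each merged site in LNCaP (red, upwards) and in IMR90 (blue, downwards) along the clustered protocadherin genes and along the IGHV segments, against the distance in kb from the start of the region. IMR90 lines are sparse over the alpha and beta protocadherin genes (3 and 4 peaks in IMR90 replicate 2) and over the IGHV segments, and frequent over the gamma genes (19 peaks).

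Other bins with many LNCaP-specific sites lay on chromosomes 1, 5 and 11. The bin of chromosome 1 that starts at 2000001 held 17 LNCaP-specific sites with a highest fold enrichment of 35.3, around TNFRSF14, TTC34 and ACTRT2. The bin at 140000001 of chromosome 5, which covers the protocadherins, also held 17. Next came 13 sites around KAZN and PRDM2 at 14000001 of chromosome 1 and 13 around BRSK2, MOB2 and MUC5B at 1000001 of chromosome 11. Runs of consecutive LNCaP sites with no IMR90 peak at any of them reached 15 sites at chr16:31985613-33605924, between ZNF267 and the orphan segment IGHV3OR16-17. Runs of 14 sites lay from TNFRSF14 to PRDM16-DT (chr1:2493338-2983331) and from COBL to SEC61G (chr7:51655344-54746872). In all, 148 runs had 5 or more sites and held 16.8% of the LNCaP-specific class.

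Long runs were fewer among IMR90-specific sites, which were also fewer in all. A total of 7 runs had 5 or more sites, holding 1.03% of the class, and the longest had 6 sites (chr10:3479256-4387211) around KLF6, a zinc finger regulator of matrix and growth factor genes. None of the 6 sites held a motif with at most 1 mismatch, and their fold enrichment ranged from 5.93 to 22.4. Within the span of this run 4 other sites had a peak in a single LNCaP library. The 6 runs of 5 sites lay over BANP, over PMP22 and CDRT4, from HOXB1 to HOXB3, from TCF4 to TXNL1, from DOK6 to RTTN, and at CDYL. The bins with most IMR90-specific sites held 9 each: at 49000001 of chromosome 12 (with KMT2D, PRKAG1 and WNT10B), at 88000001 of chromosome 16 (with BANP and PIEZO1) and at 149000001 of chromosome 5 (with PDGFRB and CSF1R). Another 5 bins held 8, among them 1 on chromosome 17 with HOXB1 and HOXB3 and 1 on chromosome 11 with TEAD1 and DKK3.

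Gene lists gave the position of specific sites relative to genes that mark each cell type. An LNCaP-specific site lay in or within 10 kb of 16.4% of the 19220 protein-coding genes and an IMR90-specific site of 13.5%. Among 23 fibroblast matrix genes, 12 had an IMR90-specific site (52.2%) and 2 an LNCaP-specific one. The strongest were at TGFBI, a secreted matrix protein (mean fold enrichment 14.3 over 17.9 and 10.7), FBN1, which encodes fibrillin (12.9), COL6A3, a collagen VI chain (9.12), and PDGFRB, the platelet-derived growth factor receptor of mesenchymal cells (8.53). The 14 IMR90-specific sites of this list ranged from 4.27 at VIM to 14.3. Of the sites just named, the best motif match had 1 mismatch at TGFBI and FBN1 and 2 at COL6A3 and PDGFRB. Both low-cell IMR90 control libraries had a peak at the PDGFRB site, replicate 2 alone at FBN1, and neither at TGFBI or COL6A3. The LNCaP-specific sites were at COL6A2 (11.3) and COL5A1 (6.32). Of 21 mesenchymal regulators 4 had an IMR90-specific site, at ZEB1 (12.4), TWIST1 (9.80), TWIST2 (9.24) and NR2F1 (7.31), and 2 an LNCaP-specific one, at OSR1 (8.03) and ZEB2 (7.29). Both low-cell IMR90 control libraries had a peak at the OSR1 site. The best motif match had 2 mismatches at each of the 4 IMR90-specific sites of the regulators. A low-cell peak was present among them only at TWIST2, in replicate 1.

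Among 21 prostate luminal genes, 5 had an LNCaP-specific site (23.8%) and 2 an IMR90-specific one. The sites were at the calcium channel gene TRPV6 (17.5), at SLC45A3, which encodes prostein (17.2), at the androgen-regulated PMEPA1 (13.4), at SPDEF, an ETS factor of luminal cells (11.1), and at the protease gene TMPRSS2 (8.21). The IMR90-specific ones were at FKBP5 (10.5) and CREB3L4 (6.99). Of 20 epithelial adhesion genes 6 had an LNCaP-specific site, the strongest at OVOL1 (14.4), SPINT1 (12.4) and KRT8 (12.1) and the next at ESRP1 on chromosome 8 (10.7), and 2 an IMR90-specific one, at CDH1 (6.38) and KRT19 (6.24). At OVOL1 the LNCaP replicates stood at 24.2 and 4.59, and both low-cell IMR90 control libraries had a peak there.

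The HOX clusters, which pattern the body axis and are divided by CTCF into active and silent parts, differed at single sites. HOXA held 4 shared sites and 1 IMR90-specific site in HOXA3 (5.27 and 6.55). A shared site in HOXA3 was lower in LNCaP, with 9.70 and 11.3 against 23.4 and 26 (difference -1.20, limma adjusted p = 0.0079), and one in HOXA10 was higher, with 18.8 and 19.2 against 8.96 and 12.2 (0.90, limma adjusted p = 0.04). HOXB held 7 shared sites and 3 IMR90-specific ones, at HOXB1 (6.97 and 8.52) and at HOXB3 (14.2 and 13.3, then 5.08 and 7.51). HOXC held 3 shared sites and 1 LNCaP-specific site in HOXC4 (7.65 and 6.55). Of the 3 shared sites 2 were called higher in LNCaP, beside 10.2% of all shared sites. HOXD held 5 shared sites and 1 LNCaP-specific site in HOXD10 (12.4 and 16.6). A shared site in HOXD3 was higher in LNCaP, with 23.5 and 12.1 against 5.79 and 8.34 (difference 1.31, limma adjusted p = 0.037).

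Imprinted genes are expressed from 1 parental copy, at some of them with CTCF bound to the unmethylated copy only. Of 21 such genes, 11 had an LNCaP-specific site (52.4%, beside 16.4% of all genes) and 2 an IMR90-specific one. The 11 genes held 15 distinct LNCaP-specific sites, and the adjacent ZIM2 and PEG3 were counted through the same ones. The sites were led by one in TH, within 10 kb of IGF2 (16.5), and by those at MEST (15.4), GNAS (12.7) and, level with each other, H19 and SNRPN (10.7), and the IMR90-specific ones were at DIRAS3 (8.72) and SNRPN (6.67). The site at MEG3 (7.52) also had a peak in both low-cell IMR90 control libraries.

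The H19 and IGF2 interval on chromosome 11 held 5 shared, 4 LNCaP-specific and 0 IMR90-specific sites. Around the start of H19, near the imprinting control region, several IMR90 peaks were called in 1 replicate only. The site at 2019615 had 11.7 and 8.48 in LNCaP and 7.74 in IMR90 replicate 2 alone. The next was LNCaP-specific (7.99 and 13.4), and the one at 2021058 had 11.2 and 10.7 in LNCaP and 5.59 in IMR90 replicate 1 alone, although both low-cell IMR90 libraries had a peak there (15.2 and 7.65). The site at 2023306 was shared at 7.70 and 11 against 8.06 and 9.88. The site near MRPL23 was stronger in LNCaP (29.6 and 32.8 against 20.5 and 19.6, difference 0.65, limma adjusted p = 0.034), and the 3 shared sites over INS-IGF2 did not pass the threshold. The LNCaP-specific site in TH had 19.9 and 13, and those at 2110270 (5.76 and 8.55) and 2120940 (7.97 and 4.50) lay between H19 and IGF2.

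The kallikrein genes on chromosome 19, which include the androgen-regulated KLK2 and KLK3, showed no specific site. From KLK15 to KLK14 there were 4 shared sites and 1 site with both LNCaP libraries and IMR90 replicate 1. In the first part, around KLK15, KLK3 and KLK2, the only peak was 8.10 in LNCaP replicate 2. The site at KLK4 had 8.45 and 15.6 in LNCaP and 11.1 in IMR90 replicate 1. Between KLK4 and KLK5 the shared sites had 11.4 and 13.9 against 17.1 and 25.8 (difference -0.70, limma adjusted p = 0.085), and 15.6 and 22.4 against 19.7 and 16.0 (0.14, limma adjusted p = 0.72). In an intron of KLK10 the fold enrichment was 31.0 and 31.0 in LNCaP and 9.75 and 8.73 in IMR90 (1.76, limma adjusted p = 0.002). It was the 1 call in the locus, and 10.2% of all shared sites were called higher in LNCaP. The site near KLK11 had 15.2 and 18.3 against 13.2 and 19.3 (0.13, limma adjusted p = 0.77).

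Of 15 CTCF and cohesin genes 1 (6.67%) had an LNCaP-specific site, SMC1B (8.98), and 2 (13.3%) an IMR90-specific one, STAG1 (8.36) and WAPL (8.10), beside 16.4% and 13.5% of all genes. Of 18 housekeeping genes 3 (16.7%) had an LNCaP-specific site, among them ACTB (18.0, from 24.4 and 11.7) and RPL13A (6.85), and 1 (5.56%) an IMR90-specific one, at PPIA (7.42). Both low-cell IMR90 control libraries had a peak at the ACTB site. Of 53 clustered protocadherin genes 35 had an LNCaP-specific site within 10 kb, from 16 distinct sites led by one of 15.1, and the 21 with an IMR90-specific site shared a single one in the gamma cluster (5.91).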

How the data were processed

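Peak calls of the 4 control CTCF libraries were analysed, with calls of the low-cell, CTCF siRNA and histone libraries for the same sites. Per the study's methods, reads were aligned to hg19 with Bowtie, ambiguous and clonal reads were discarded, and the authors called peaks in each library with MACS2 at an FDR of 0.05; histone regions came from PeakRanger, and low-cell reads were aligned with BWA and freed of duplicates by molecular identifier. The deposited peak columns hold fold enrichment over local background (a ratio), a −log10 p-value, a −log10 q-value and a summit offset. The score columns of the deposited files (the integer score MACS2 derives from the q-value, and an undescribed score in the histone regions) were not used. Total read depth is not given in the peak files, although the study's reporting summary lists the reads of each library. Depth of the compared libraries was judged from summit reads recovered from fold and p-value (tolerance 0.001 on the −log10 scale, all peaks recovered).

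Autosomal peaks were merged at 1 bp, and a site took the highest fold enrichment of its peaks in a library. Shared sites were tested with limma (version 3.58.1; R version 4.3.3) on quantile-normalised log2 fold enrichment, and peak numbers with an exact permutation test. Genes came from GENCODE lifted to hg19. The code was tested on simulated data. Sites and genes named are the 5 strongest of each class, the 5 largest limma differences per direction, the densest bins, the longest runs, the extreme chromosomes, up to 4 genes per list and line, and every reproducible H19/IGF2 and kallikrein site; ties and further members of the HOX, protocadherin and IGHV loci were added. The members, lists and tests were chosen with earlier results of these data known. Alternatives covered overlap, q-value, list length, scaling, replicate block, motif and window settings and leaving out each library. A few results within these rules are not reported here.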

Additional observations from a re-analysis of the deposited data

How the results depend on the processing

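Sites cannot be read below the caller's threshold, so a specific site may hold weak binding in the other line, and 2 libraries per line limit every test. Shared counts stayed within 1.5 times under all alternatives. With a peak in either library sufficing, 18415 sites were LNCaP-specific and 9777 IMR90-specific. Leaving out 1 library gave 7369 to 14955 LNCaP-specific and 3961 to 6923 IMR90-specific sites. With lists of equal length the median fold enrichment was 9.01 at LNCaP-specific and 7.59 at IMR90-specific sites. The limma calls needed all 4 libraries, as given above. Without any 1 library all 2388 and 2210 called sites kept the direction of their difference. From summit reads limma called 1461 (LNCaP) and 1451 (IMR90) sites. With the replicate number as a block it called 3044 and 2791 sites, changing no call already made. The block fit and the fits without 1 library each left 1 residual degree of freedom, and why their calls differed was not tested. No source gives the numbers a shared origin, and the replicate differences of the lines correlated at -0.059 over shared sites.

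For shared, LNCaP-specific and IMR90-specific sites in turn, the motif share was 31.1%, 15.6% and 7.63% with 0 mismatches, 98.3%, 95% and 89.7% with 2, and 74.4%, 51.0% and 34.4% within 50 bp. A mark in either library gave 17.1%, 19.8% and 11.5% for H3K4me3 and 22%, 25.8% and 17.5% for H3K27ac. Promoters of 2 kb took 17.2%, 13.6% and 20.5%. With an overlap of 50% the low-cell share of IMR90-specific sites was 9.27%. Without 1 library the LNCaP-specific share was 32.9 to 43.3% on chromosome 21, 15.3 to 26.7% on 22 and 16.1 to 26.5% on 13, and the IMR90-specific share 23.5 to 33.7% on 13, 20.1 to 29.6% on 18 and 10.1 to 15.4% on 19. With equal lists the latter were 25.2%, 21.6% and 12%, and the chromosome 1 bin at 2 Mb held 11 sites. Narrower bins held at most 11 sites at the protocadherins and 5 at PDGFRB. Within 50 kb an IMR90-specific site was near 5 prostate luminal genes, and an LNCaP-specific site near 14 epithelial and 4 fibroblast matrix genes, when 24.6% and 30.5% of all genes had one. Within gene bodies the counts were 0 for IMR90-specific sites in epithelial genes and 1 for LNCaP-specific sites in fibroblast matrix genes and in mesenchymal regulators (all genes: 9.53% and 11.5%). Looser settings for motif, mark, promoter or gene distance can only raise a share, and stricter ones only lower it. Leaving out a library likewise loosens the rule for a specific site. Under these alternatives chromosome 21 kept the highest LNCaP-specific share and chromosomes 13 and 18 the highest IMR90-specific shares. The cause of the other moves was not tested.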
